A study of Mus musculus with 3 samples.

Results

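Granulocyte progenitors rich in primary granule RNA made up 874 of 20504 kept cells from 3 single-cell libraries of mouse jaw. A cell barcode was kept with at least 500 UMIs (unique molecular identifiers, each counting 1 captured RNA molecule), at least 250 genes and at most 15% mitochondrially encoded UMIs. It was a member where Elane, Mpo and Prtn3 together held at least 0.5% of its UMIs. There were 310 members in the library labelled 1d, 521 in the library labelled 7d and 43 in the library labelled Ctrl. All mice were wild-type C57BL/6 males aged 10 weeks, and each library pooled the jaw cells of 8 of them. The mice of 1d and 7d received 10 Gy of radiation to the head and neck and were killed 1 or 7 days later, while the mice of Ctrl had no treatment. Jaw tissue was digested with collagenase II, and the cells were frozen and thawed before capture with a 10x 3' kit. The labels do not separate jaw bone marrow from other jaw tissue.

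Neutrophils arise in bone marrow through steps that are marked by the order in which their granules are made. Promyelocytes make the primary, or azurophil, granules, which hold the serine proteases neutrophil elastase (Elane), proteinase 3 (Prtn3) and cathepsin G (Ctsg) and the enzyme myeloperoxidase (Mpo). Later precursors switch to secondary granule genes such as Ltf, Camp and Ngp, and the mature neutrophil carries the proteins but little of these RNAs. The p53 pathway, a main arm of the response to damaged DNA, switches on genes such as Cdkn1a, Mdm2, Bax and Ccng1.

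With 1 library per group there was no replicate and no test between groups. Every interval below is an exact 95% interval that covers counting error only, and leaves out the spread between cells, mice and captures. A lower level could mean fewer cells with the RNA or less RNA per cell, so levels per cell are given for the genes that matter most. Levels are in CPM, a gene's UMIs scaled to the same total of member UMIs in each library. The libraries held 46119700, 49998293 and 41048084 UMIs over 6043, 7744 and 11315 barcodes in 1d, 7d and Ctrl, of which 5127, 6497 and 8880 were kept. The 3 pairs of libraries shared 12 to 24 barcode sequences, and no member's barcode occurred among the members of another library. In each comparison with an irradiated library, most p53 target genes were higher in the library labelled Ctrl, which the labels give no irradiation. This held in the progenitors and in the 3 other cell populations that were compared, and its cause was not tested. Every ratio to Ctrl below rests on that library and on its 43 members.

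The promoters of the genes that chose the members (Elane, Mpo and Prtn3) and of the marker Ctsg are shown because the text turns on these genes. That of Cdkn1a is shown as a p53 target. Sequences are from RefSeq (GRCm38.p6), 5′ to 3′ on the gene's strand, from 250 bases before to 50 after the annotated start, and capitals mark the motif named. In Elane (chr10:79886062-79886361, plus strand), Prtn3 (chr10:79879417-79879716, plus), Mpo (chr11:87793534-87793833, plus) and Ctsg (chr14:56102525-56102824, minus) the capitals mark GAGGAA, the core bound by PU.1, a myeloid transcription factor. In Cdkn1a (chr17:29090729-29091028, plus) they mark the core of a p53 element, CATG repeated after a gap of 6 bases.
Elane: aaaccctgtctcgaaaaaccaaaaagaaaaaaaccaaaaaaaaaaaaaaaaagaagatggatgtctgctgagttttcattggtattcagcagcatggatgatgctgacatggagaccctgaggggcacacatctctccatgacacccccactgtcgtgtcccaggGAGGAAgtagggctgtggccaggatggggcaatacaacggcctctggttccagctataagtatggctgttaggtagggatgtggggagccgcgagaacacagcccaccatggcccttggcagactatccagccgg
Prtn3: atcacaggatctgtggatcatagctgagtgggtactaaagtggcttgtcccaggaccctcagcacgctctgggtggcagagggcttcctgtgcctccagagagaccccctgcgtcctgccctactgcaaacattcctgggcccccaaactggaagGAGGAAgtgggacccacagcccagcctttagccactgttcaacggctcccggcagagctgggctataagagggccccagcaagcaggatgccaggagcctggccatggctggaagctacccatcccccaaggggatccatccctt
Mpo: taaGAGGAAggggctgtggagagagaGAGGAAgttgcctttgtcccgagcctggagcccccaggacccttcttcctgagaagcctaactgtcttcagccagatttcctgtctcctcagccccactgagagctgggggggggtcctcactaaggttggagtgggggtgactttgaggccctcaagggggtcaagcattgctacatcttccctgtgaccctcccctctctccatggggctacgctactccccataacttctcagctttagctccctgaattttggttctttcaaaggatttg
Ctsg: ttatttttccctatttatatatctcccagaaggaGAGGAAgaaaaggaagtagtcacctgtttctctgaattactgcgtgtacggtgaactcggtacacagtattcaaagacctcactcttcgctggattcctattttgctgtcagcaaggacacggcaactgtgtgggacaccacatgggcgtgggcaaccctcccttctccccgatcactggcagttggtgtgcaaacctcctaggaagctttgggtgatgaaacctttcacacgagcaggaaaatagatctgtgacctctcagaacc
Cdkn1a: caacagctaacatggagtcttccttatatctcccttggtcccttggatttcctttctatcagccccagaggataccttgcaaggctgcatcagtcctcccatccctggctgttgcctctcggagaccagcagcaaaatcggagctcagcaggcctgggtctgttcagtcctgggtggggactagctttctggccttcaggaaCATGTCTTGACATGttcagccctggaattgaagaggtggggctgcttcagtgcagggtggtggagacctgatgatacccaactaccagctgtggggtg

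GAGGAA was searched on both strands (TTCCTC on the other), and 28.3% of all 32851 windows of that table held it, so a match is common. It lay 85 bases before the start in Elane, 95 in Prtn3 and 216 in Ctsg, and Mpo held it at 2 places, the first 247 bases before the start. The window of Ms4a3, the other marker, held GAGGAA and, next to it without overlap, the C/EBP core TTGCNNAA, which 10.8% of windows held and the windows of the other 4 marker genes did not. The p53 core, whose reverse complement is the same pattern, was in 0.712% of windows, and in Cdkn1a it lay 48 bases before the start. A second window of Cdkn1a and the windows of Ccng1, Mdm2, Bax and Phlda3 did not hold it. These matches describe letters in a window and were not set against binding data.

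The progenitors made up 6.05% (5.41 to 6.73) of kept cells in the library labelled 1d, 8.02% (7.37 to 8.71) in 7d and 0.484% (0.351 to 0.652) in Ctrl. The share was 12.5 times (9.06 to 17.6) that of Ctrl in 1d and 16.6 times (12.1 to 23.2) in 7d, and the share in 1d was 0.754 times (0.653 to 0.869) that in 7d. Because members were chosen by the level of these 3 RNAs, the shares describe the libraries and are no test. The order of the libraries was the same at limits of 0.1%, 0.25%, 1% and 2% of UMIs: at 2% the counts were 175, 295 and 15 cells in 1d, 7d and Ctrl. At 5% there were 14, 13 and 0 cells. For the 0 of 8880 in Ctrl, a floor of 3 counts is a share of 0.0338%, and the exact interval ended at 0.0415%. The members nearest the limit were at 0.502%, 0.503% and 0.541% in 1d, 7d and Ctrl, and the nearest cells outside it were at 0.494%, 0.492% and 0.4997%.

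**Figure D1:**
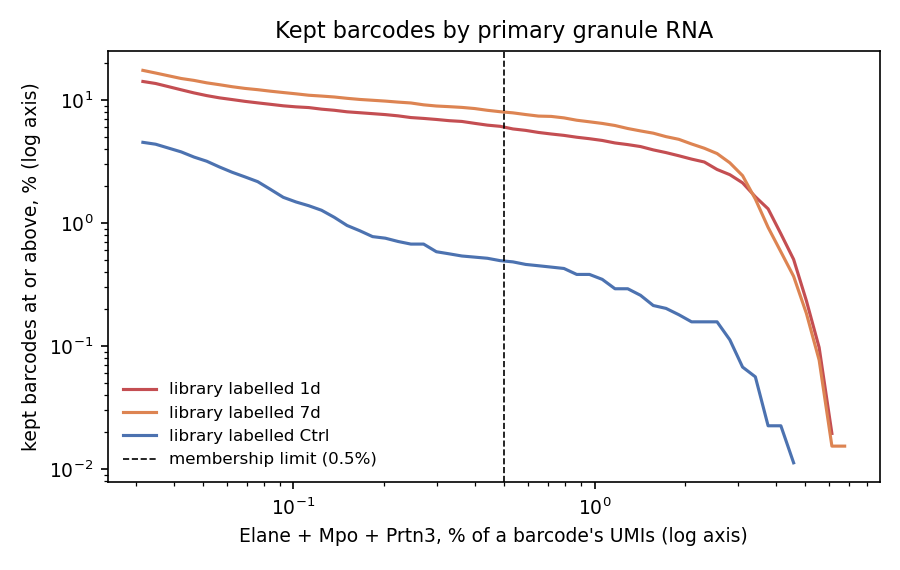
Share of kept cells (vertical axis, percent, log scale) at or above a given share of Elane, Mpo and Prtn3 UMIs (horizontal axis, percent, log scale), 1 line per library, with the membership limit dashed. At the limit the lines stand at 6.05% (1d), 8.02% (7d) and 0.484% (Ctrl), and the Ctrl line lies under the others over the range drawn.

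The denominator mattered to this comparison. Cells outside the members with at least 1% Ltf, Camp and Ngp UMIs, the next step of the lineage, were 27.1% (25.9 to 28.3) of kept cells in 1d, 6.94% (6.34 to 7.59) in 7d and 5.53% (5.06 to 6.03) in Ctrl. For each 100 of these secondary granule rich cells there were 22.3 progenitors in 1d, 116 in 7d and 8.76 in Ctrl. Among progenitors and secondary granule rich cells together, the share of progenitors was 2.27 times that of Ctrl in 1d and 6.66 times in 7d. Cells with at least 2 UMIs of Kit, the stem cell factor receptor of early progenitors, and under 1% secondary granule RNA were 3.08% in 1d, 2.09% in 7d and 2.31% in Ctrl outside the members. Every share here also depends on how many other cells a library holds, and the part of tissue yield and capture was not tested.

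Members were large, gene-rich cells. Their median was 26233 UMIs and 4289 genes in 1d, 22301 and 4308 in 7d, and 33030 and 4929 in Ctrl, against 4848, 3693 and 2452 UMIs in the other kept cells of those libraries. They held 19.2%, 27.2% and 4.30% of all kept UMIs in 1d, 7d and Ctrl. The rule genes reached a median of 2.37%, 2.34% and 1.48% of a member's UMIs, with the highest at 6.21%, 6.91% and 4.76%. Few members rested on a handful of rule UMIs: 2 in 1d, 1 in 7d and 0 in Ctrl had fewer than 10 of them. Scrublet marked 22, 42 and 0 of the members as doublets (7.10%, 8.06% and 0%), against 4.84%, 6.20% and 3.10% of all kept cells. The threshold of these calls was set in another way in Ctrl than in 1d and 7d.

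The label was checked against the other markers. Ctsg (chr14:56099881-56102574, GRCm38) had 19161 UMIs (2295 CPM) in 1d, 25985 (2126 CPM) in 7d and 3908 (2436 CPM) in Ctrl, and Ms4a3 (chr19:11629496-11640851), a membrane protein of granulocyte and monocyte progenitors, had 7576 UMIs (907 CPM) in 1d, 11413 (934 CPM) in 7d and 1331 (829.6 CPM) in Ctrl. Members held 93.5%, 91.8% and 80.6% of all kept Ctsg UMIs in 1d, 7d and Ctrl. Thinned to 1000 UMIs, which left out 2 members of 1d and 1 of 7d, 67.2% of members in 1d had Ctsg, against 0.693% of cells outside the members with at least 2 UMIs of Cd79a, a B cell gene, which should lack it. Before thinning those shares were 96.5% and 1.79%, at median depths of 26233 and 2755 UMIs. Ctsg and Ms4a3 took no part in the rule, although they come from the same cells, and their levels fit the label of granulocyte progenitor.

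Over the other kept cells of the same library, the genes with the largest smallest ratio across the 3 libraries were Elane, Mpo, Prtn3, Ctsg, Prss57 and Ms4a3, as a description of the choice. Prss57, a further serine protease of azurophil granules, was 27.7, 33.9 and 62.8 times higher in members in 1d, 7d and Ctrl. Genes of other known uses followed. Hsd17b1, an enzyme of oestrogen synthesis, was 27.7, 21.7 and 20.8 times higher, Tslp, a cytokine, 23.4, 20.3 and 18.5 times, and Fbp1, an enzyme of gluconeogenesis, 20.7, 16.3 and 19.9 times. Gstm1, a glutathione transferase, was the most abundant of the others in the first 15, at 497, 705 and 668 CPM in members. Across members, the genes whose log2 CPM, after thinning to 1000 UMIs, followed that of Elane most closely were Prtn3 (smallest Pearson r over the 3 libraries 0.461), S100a8 (0.437), S100a9 (0.376) and Wfdc21 (0.335), a description over 308, 520 and 43 cells that share library and depth.

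Markers of most other cell types held a small share of member UMIs. Mature neutrophil markers summed to 0.0332%, 0.0144% and 0.0285% of member UMIs in 1d, 7d and Ctrl, against 0.482%, 0.137% and 0.925% in the other kept cells. Monocyte markers summed to 0.0390%, 0.0407% and 0.0289%, against 0.0593%, 0.0666% and 0.0413%. Stem and progenitor markers of 7d were near the other cells, at 0.0197% against 0.0210%. Eosinophil markers in 7d (0.0193% against 0.00374%) and neutrophil precursor markers in Ctrl (1.65% against 1.31%) were higher in members. Both were lower in members in the other libraries. Of 6 monocyte markers, which a bipotent granulocyte and monocyte progenitor also begins to make, 45, 81 and 4 members held at least 0.1% of their UMIs in 1d, 7d and Ctrl. The summed monocyte list had medians of 0.00301%, 0.00422% and 0.00191% and highest values of 0.562%, 0.365% and 0.289%, and none of its markers was at 0. Eosinophil markers reached 1% in 0, 5 and 0 members, mast cell and basophil markers in 0, 3 and 0, and erythroid markers in 4, 15 and 2, with highest values of 11.1%, 37.5% and 6.47%. B cell, T cell and NK cell markers stayed at or under 0.181% in every member. Macrophage markers were at 0 for all 3 genes in Ctrl members. Whether free RNA, doublets or mixed identity gave the erythroid and eosinophil UMIs was not tested.

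Members ran from cells without secondary granule RNA to cells in the switch to it. By the share of Ltf, Camp and Ngp, 150 members of 1d (48.4%, 42.7 to 54.1), 349 of 7d (67.0%, 62.8 to 71.0) and 19 of Ctrl (44.2%, 29.1 to 60.1) were under 0.1%. Between 0.1% and 1% there were 45, 63 and 9 members, and at 1% or more there were 115 (37.1%, 31.7 to 42.7) in 1d, 109 (20.9%, 17.5 to 24.7) in 7d and 15 (34.9%, 21.01 to 50.9) in Ctrl. The progenitors of 7d thus lay more often at the early end than those of 1d. The Ctrl intervals overlapped those of 1d at the early and late ends. They overlapped those of 7d at the late end but not at the early end. As shares of kept cells, the early members were 2.93%, 5.37% and 0.214% in 1d, 7d and Ctrl, and the late members were 2.24%, 1.68% and 0.169%. These limits were set after the data were seen.

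**Figure D2:**
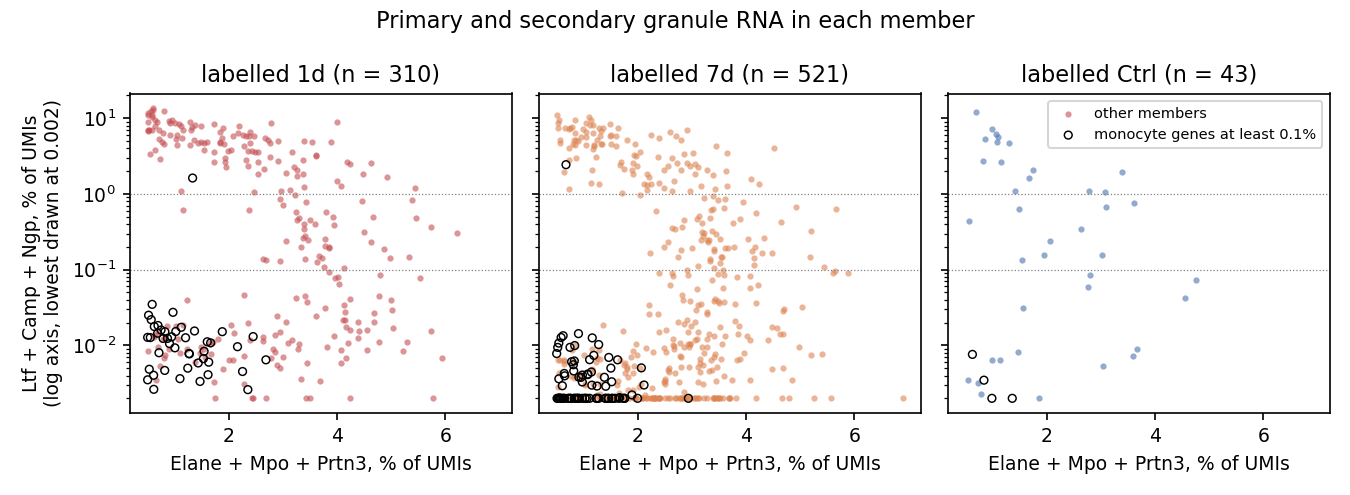
Each member's share of Ltf, Camp and Ngp UMIs (vertical axis, percent, log scale, lowest drawn at 0.002) against its share of Elane, Mpo and Prtn3 UMIs (horizontal axis, percent), for the 310, 521 and 43 members of 1d, 7d and Ctrl. Dotted lines mark 0.1% and 1%, and open circles mark the 45, 81 and 4 members with at least 0.1% monocyte UMIs, nearly all of which lie under 0.1% secondary granule RNA.

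Other genes followed this order in each library. Cd34, a stem and progenitor surface protein, had 86.8, 1.78 and 0 CPM in the early, middle and late members of 1d, 77.9, 0 and 3.31 in 7d and 53.9, 7.09 and 0 in Ctrl. Irf8, which directs monocyte and dendritic fate, had 119, 1.78 and 3.98 in 1d, 102, 5.56 and 11.8 in 7d and 97.3, 3.55 and 0 in Ctrl. Both genes were far higher in the early members than in the others in each library. Cebpe, a factor needed for secondary granules, had 114, 320.3 and 378 in 1d, 128, 318 and 404 in 7d and 104, 152 and 262 in Ctrl. It was highest in the late members of each library, and lowest in Ctrl at every step. In early members the Ctrl interval (83.8 to 128) overlapped those of 1d (105 to 125) and 7d (120 to 135). S100a8, a subunit of the abundant cytosolic protein calprotectin, had 6135, 35880.3 and 91864 in 1d, 3991, 30735 and 69415 in 7d and 8027, 27211 and 69590.1 in Ctrl, a steep gradient in the 3 libraries. Ctsg ran the other way, with 3022, 3079 and 803 in 1d, 2431, 2409.5 and 683 in 7d and 3221, 2560.4 and 935 in Ctrl. Elane was highest in the middle members, at 15891, 14618 and 9841 in 1d, 7d and Ctrl.

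**Figure D3:**
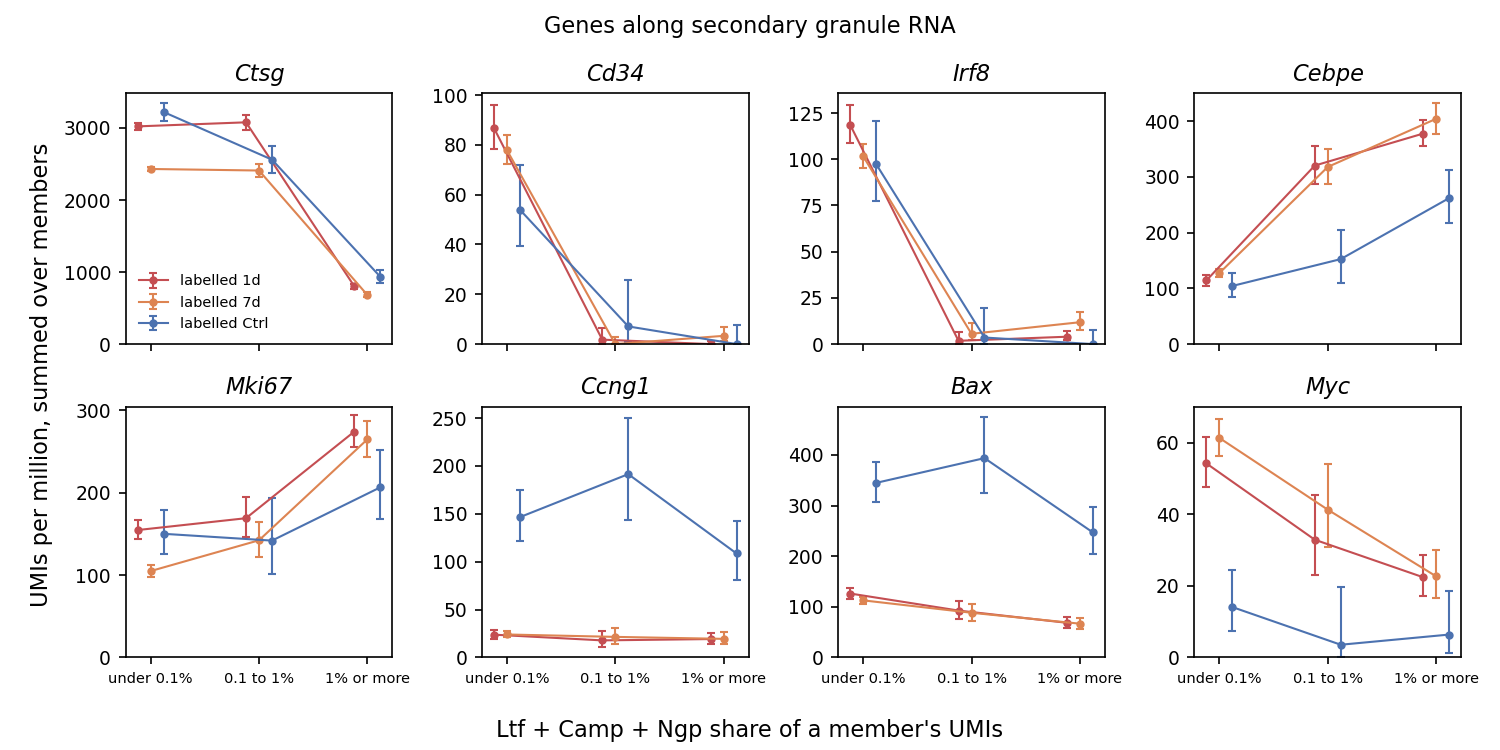
CPM of UMIs summed over members (vertical axes) of 8 genes in members with under 0.1%, 0.1 to 1% and 1% or more Ltf, Camp and Ngp UMIs, for 1d, 7d and Ctrl; bars are exact 95% intervals for counting error. Cd34 and Irf8 sit in the first group and Cebpe rises over the groups to its highest in the last. Ccng1 and Bax are higher in Ctrl and Myc lower in Ctrl in the 3 groups.

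Of the monocyte-marked members, 44 of 45 in 1d, 80 of 81 in 7d and 4 of 4 in Ctrl were early ones. Thinned to 1000 UMIs, 5.52% (3.25 to 8.69) of members in 1d, 8.46% (6.22 to 11.2) in 7d and 6.98% (1.46 to 19.1) in Ctrl held UMIs of at least 2 of the 6 monocyte genes, against 2.91%, 4.14% and 4.03% of Cd79a-positive cells. In Ctrl the interval held the Cd79a-positive value. Cd79a-positive cells were not shown to lack the genes of this paragraph, so their shares are a comparison and no background level. Kit or Cd34 was found in 5.84% (3.50 to 9.08), 10% (7.56 to 12.9) and 4.65% (0.568 to 15.8) of thinned members in 1d, 7d and Ctrl, against 0.902%, 1.49% and 0.512% of Cd79a-positive cells. Without thinning, 51.0%, 65.8% and 46.5% of members held Kit or Cd34, at depths that differ between libraries. At least 2 of 6 cycling genes were found in 13.6% (10.0 to 18.0), 14.4% (11.5 to 17.7) and 20.9% (10.0 to 36.0) of thinned members, against 10.3%, 6.29% and 0% of Cd79a-positive cells, and the 3 intervals of members overlapped. Unthinned, those shares were 85.5%, 85.8% and 90.7%. No difference in cycling between the libraries was detectable at this depth.

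Between 1d and Ctrl progenitors, genes with at least 20 UMIs over both libraries were compared by their CPM, with 2-fold as the limit of a call. The direction of some ratios turned among cycling members (42, 75 and 9 cells in 1d, 7d and Ctrl). Some also turned at a limit of 2% rule UMIs (175, 295 and 15 cells) or with each member thinned to 1000 UMIs. Some of those values stand beside the genes, without intervals. After thinning, the 43 Ctrl members held 1000 UMIs each, so thinned ratios of genes with low CPM rest on few Ctrl UMIs. Of 9986 genes, 667 (6.68%) were at least 2-fold higher in 1d and 284 (2.84%) at least 2-fold lower, 951 (9.52%) in all, with a median log2 ratio of 0.12 over all genes. Among the gene lists, p53 targets had the lowest median, and ribosome biogenesis and Myc target genes the highest. Between 7d and Ctrl, 1289 of 10517 genes (12.3%) were at least 2-fold higher in 7d and 436 (4.15%) at least 2-fold lower, 1725 (16.4%) in all, with a median of 0.24. Scaling by the median of ratios in place of total UMIs would move each log2 ratio by −0.09 in 1d over Ctrl and by −0.21 in 7d over Ctrl, and gave 901 higher and 639 lower genes in 7d. With that scaling the medians of receptors, unfolded protein response genes and NRF2 targets in 1d, and of receptors in 7d, were below 0. The comparisons with Ctrl share its 43 members, so likeness between them is not independent.

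The p53 targets were lower in 1d and 7d progenitors than in Ctrl progenitors. Of 32 tested, 15 were at least 2-fold lower in 1d and 15 in 7d (46.9% in each, against 2.84% and 4.15% of all genes), while 1 and 2 were at least 2-fold higher. The median log2 ratio was −0.99 in 1d over Ctrl and −0.74 in 7d over Ctrl. Ccng1 (cyclin G1, chr11:40748552-40755311, GRCm38) had 179 UMIs (21.4 CPM) in 1d, 280 (22.9 CPM) in 7d and 230 (143 CPM) in Ctrl. Per cell, the lowest, median and highest levels were 0, 0 and 173 CPM in 1d, 0, 0 and 574 in 7d and 0, 109 and 525 in Ctrl. The cells of the libraries overlapped, but 43.5%, 39.2% and 81.4% of members held a UMI of it in 1d, 7d and Ctrl. Those shares were not thinned, and the median depth was highest in Ctrl members, at 33030 UMIs against 26233 in 1d and 22301 in 7d. The ratio was 0.150 (0.122 to 0.183) in 1d and 0.160 (0.134 to 0.191) in 7d.

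Bax, a pore-forming effector of apoptosis (chr7:45461697-45466898), had 856 UMIs (103 CPM) in 1d, 1249 (102 CPM) in 7d and 521 (325 CPM) in Ctrl. Its lowest, median and highest levels per cell were 0, 88.7 and 526 CPM in 1d, 0, 89.1 and 431 in 7d and 0, 286 and 1016 in Ctrl. The medians stood apart while the ranges overlapped, with ratios to Ctrl of 0.316 (0.283 to 0.353) in 1d and 0.315 (0.284 to 0.349) in 7d. Cdkn1a, the cell cycle inhibitor p21 (chr17:29090976-29100727), had 1045 UMIs (125 CPM) in 1d, 1659 (136 CPM) in 7d and 662 (413 CPM) in Ctrl. Its cell medians were 57.5, 84.4 and 388 CPM in 1d, 7d and Ctrl, and the ratios were 0.303 (0.275 to 0.335) and 0.329 (0.3005 to 0.361). Mdm2, the ubiquitin ligase that degrades p53, was at 0.403 (0.348 to 0.468) in 1d and 0.736 (0.646 to 0.841) in 7d, the second at 1.07 among cycling members. Phlda3, a repressor of Akt signalling, had 1, 6 and 51 UMIs in 1d, 7d and Ctrl, and Zmat3, an RNA-binding p53 target, 4, 7 and 17, so both had few UMIs outside Ctrl. Dcxr, Psrc1, Trp53inp1 and Cd80 were lower as well, with ratios of 0.216, 0.161, 0.240 and 0.112 in 1d and 0.252, 0.212, 0.338 and 0.106 in 7d.

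**Figure D4:**
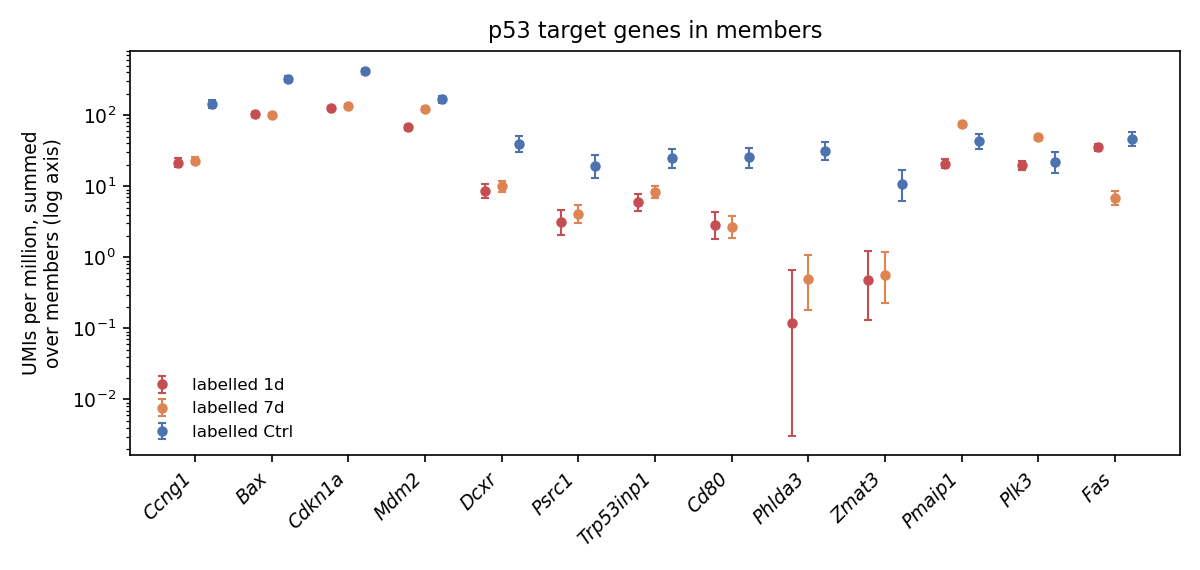
CPM of UMIs summed over members (vertical axis, log scale) of 13 p53 target genes in 1d, 7d and Ctrl progenitors, with exact 95% intervals for counting error. The first 10 genes from the left are lower in 1d and 7d than in Ctrl, while Pmaip1 and Plk3 are highest in 7d and Fas is lowest in 7d.

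Not every p53 target had that pattern. Pmaip1, the BH3-only protein Noxa, was at 20.8, 75.1 and 43.0 CPM in 1d, 7d and Ctrl, with ratios of 0.485 (0.365 to 0.650) in 1d and 1.75 (1.37 to 2.26) in 7d. Plk3, a stress kinase, had ratios of 0.906 (0.626 to 1.34) and 2.26 (1.61 to 3.27). With members thinned, Pmaip1 was below Ctrl in 7d as well, at 0.469. That thinned value rests on few Ctrl UMIs and has no interval, so it cannot show that the direction of Pmaip1 in 7d depended on depth. Fas, the death receptor, was at 35.6, 6.87 and 46.7 CPM, 0.761 (0.589 to 0.994) times Ctrl in 1d (1.37 among cycling members) and 0.147 (0.106 to 0.203) times in 7d. Gdf15, a secreted stress cytokine, had 38, 107 and 3 UMIs, and the 3 UMIs of Ctrl gave ratios of 2.43 (0.772 to 12.3) and 4.68 (1.56 to 23.1).

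The p53 targets were lower at each step of the lineage. In early, middle and late members the ratio of Ccng1 in 1d over Ctrl was 0.162 (0.124 to 0.212), 0.0929 (0.0527 to 0.158) and 0.177 (0.118 to 0.265), and in 7d over Ctrl 0.163 (0.130 to 0.206), 0.112 (0.0679 to 0.181) and 0.179 (0.115 to 0.275). Bax had 0.366, 0.235 and 0.277 in 1d and 0.327, 0.224 and 0.270 in 7d. The list medians in early, middle and late members were −0.98, −1.35 and −0.96 in 1d over Ctrl, beside 0.08, 0.04 and 0.25 for all genes, and −0.86, −1.10 and −0.41 in 7d over Ctrl, beside 0.11, 0.15 and 0.48. In the comparison cells outside the members, the list median was −1.51 and −1.04 (1d and 7d over Ctrl) in secondary granule rich cells, −0.93 and −1.13 in Kit-positive cells and −0.47 and −0.45 in cells with at least 3 monocyte genes. Ccng1 in secondary granule rich cells had ratios of 0.0792 (0.0689 to 0.0908) and 0.0760 (0.0600 to 0.0950). Lower p53 targets were thus found in each of the 4 populations compared.

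**Figure D5:**
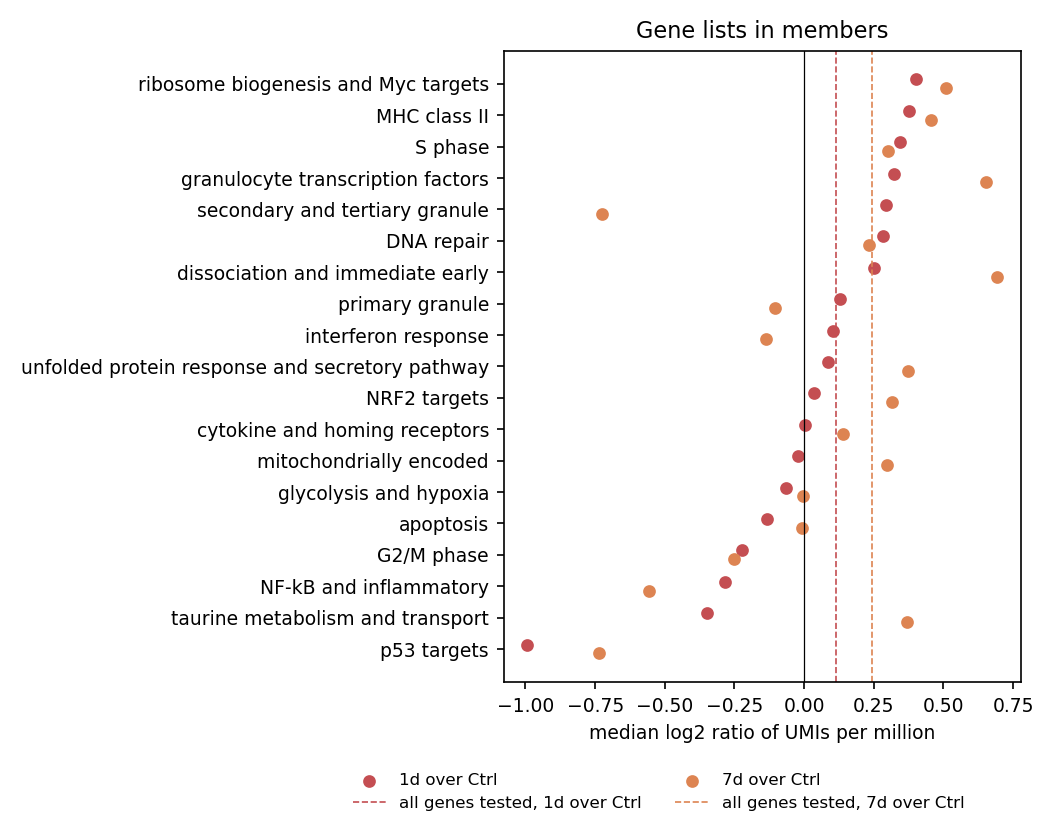
Median log2 ratio of CPM (horizontal axis) for 19 gene lists in members, 1d over Ctrl and 7d over Ctrl, with the median of all genes tested dashed. The p53 targets stand lowest in both, at −0.99 and −0.74, and the secondary and tertiary granule list lies furthest apart between them, at 0.29 and −0.73.

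Genes of growth stood on the other side. Of 28 ribosome biogenesis and Myc target genes, 23 were higher in 1d and 26 in 7d than in Ctrl, with medians of 0.40 and 0.51 against 0.12 and 0.24 over all genes; 3 and 6 passed 2-fold higher (10.7% and 21.4%, against 6.68% and 12.3% of all genes). Myc, the growth factor-driven transcription factor (chr15:61985391-61990374), had 341 UMIs (40.8 CPM) in 1d, 643 (52.6 CPM) in 7d and 16 (9.97 CPM) in Ctrl. A UMI of Myc was seen in 38.4%, 48.6% and 23.3% of members, whose cell medians were 0 in the 3 libraries. Its ratio was 4.10 (2.49 to 7.25) in 1d and 5.28 (3.22 to 9.29) in 7d, while in Kit-positive cells outside the members it was 0.878 (0.742 to 1.04) and 0.535 (0.428 to 0.665). Srm, spermidine synthase and a Myc target, had ratios of 2.19 (1.70 to 2.87) and 3.35 (2.62 to 4.36), and Dkc1, which modifies ribosomal RNA, 2.11 (1.57 to 2.88) and 2.16 (1.62 to 2.95). Among cycling members alone, Srm and Dkc1 were at 0.844 and 0.965 in 1d, and the list medians were −0.62 in 1d and −0.10 in 7d, so the direction of the list turned. In 7d, Polr1b, a subunit of RNA polymerase I, was at 4.01 (1.91 to 10.1) and the ribosome assembly factors Tsr1 and Rrp12 at 4.63 (2.68 to 8.75) and 3.40 (1.92 to 6.66).

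By their medians, DNA replication genes stood above all genes in 1d, and mitotic genes stood lower in both comparisons. Of 30 S phase genes, 29 were higher in 1d and 21 in 7d, with medians of 0.35 and 0.30. Only 2 and 1 passed 2-fold higher (6.67% and 3.33%, against 6.68% and 12.3% of all genes), so that share was not above all genes. The median of 7d was close to the 0.24 of all genes. Mcm5, a helicase subunit, had ratios of 1.59 (1.35 to 1.87) and 1.78 (1.52 to 2.09), and Tyms, thymidylate synthase, 1.98 (1.55 to 2.57) and 1.34 (1.05 to 1.73). Of 30 G2/M genes, 21 were lower in each comparison, with medians of −0.22 and −0.25. Ccnb1, the mitotic cyclin B1, was at 0.461 (0.350 to 0.612) in 1d and 0.420 (0.323 to 0.552) in 7d, Ube2c, which helps destroy cyclins, at 0.480 (0.437 to 0.529) and 0.594 (0.544 to 0.650), and Cdk1, their kinase, at 0.584 (0.505 to 0.678) and 0.522 (0.453 to 0.603). Mki67 and Top2a stayed nearer to Ctrl, at 1.19 (1.04 to 1.36) and 0.972 (0.861 to 1.10) in 1d and 0.826 (0.725 to 0.944) and 0.970 (0.862 to 1.09) in 7d. In secondary granule rich cells outside the members the G2/M list ran the other way, with 27 of 30 genes higher in 1d and 30 of 30 higher in 7d, and medians of 0.63 and 0.88. Within late members the S phase medians were 1.04 in 1d and 1.03 in 7d, while in early members they were 0.04 and −0.08. The G2/M list was lower mainly in early members, with 24 of 30 genes lower in 1d and 26 in 7d and medians of −0.37 and −0.45. In middle members the G2/M medians were −0.14 and −0.05, with 15 and 16 of 29 genes lower. In late members they were −0.06 and −0.06, with 15 and 16 of 30 lower, beside 0.25 and 0.48 for all genes. Among cycling members the S phase and G2/M medians of 1d were −0.10 and 0.13. With members thinned, the G2/M median of 7d was 0.04, Cdk1 was at 1.16 and Mki67 at 1.19 in 7d. Of 29 DNA repair genes, 20 were higher in 1d and 20 in 7d, with medians of 0.28 and 0.23. Over all genes the medians were 0.12 and 0.24, so the repair median of 7d was not above all genes. Past 2-fold higher were 3 and 6 repair genes (10.3% and 20.7%, against 6.68% and 12.3% of all genes). Among cycling members the repair medians were −0.23 and −0.16. Ung, which removes uracil from DNA, had 77, 155 and 3 UMIs in 1d, 7d and Ctrl.

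Transcription factors of the lineage were mostly higher than in Ctrl. Of 17 tested, 15 were higher in 1d and 15 in 7d, 3 and 6 of them past 2-fold, with medians of 0.32 and 0.65, beside 0.12 and 0.24 for all genes. Those past 2-fold were 17.6% and 35.3%, against 6.68% and 12.3% of all genes, and with members thinned the 1d median was −0.10. Cebpa, which opens the granulocyte programme (chr7:35119293-35121928), had 439 UMIs (52.6 CPM) in 1d, 1314 (108 CPM) in 7d and 77 (48.0 CPM) in Ctrl. Per cell, its lowest, median and highest levels were 0, 31.1 and 727 CPM in 1d, 0, 70.8 and 858 in 7d and 0, 33.4 and 212 in Ctrl. Cebpa was higher in 7d, at 2.24 (1.78 to 2.86) times Ctrl, and in 1d the interval held 1, at 1.10 (0.858 to 1.41). In Ctrl, 1 member held 20.8% of its UMIs. With each member thinned to 1000 UMIs, the 7d ratios of Cebpa, Gfi1 and Irf8 were 0.730, 0.827 and 0.848, below 1. These thinned values rest on few Ctrl UMIs and have no interval, so they do not settle a direction. Cebpe had ratios of 1.44 (1.27 to 1.65) and 1.23 (1.08 to 1.40), Gfi1, a repressor that favours granulocytes, 1.30 (0.906 to 1.91) and 1.59 (1.13 to 2.32), and Myb, a progenitor factor, 1.14 (0.985 to 1.34) and 1.76 (1.52 to 2.04). Spi1, which encodes PU.1, was at 1.12 (1.03 to 1.22) and 0.824 (0.757 to 0.898), and Irf8 at 1.24 (0.984 to 1.58) and 1.46 (1.16 to 1.84). Gata2, a factor of stem cells and of basophils and mast cells, had 112, 194 and 8 UMIs, at 2.69 (1.32 to 6.38) and 3.18 (1.58 to 7.48), with 50% of those of Ctrl in 1 member, and at a limit of 1% rule UMIs the 1d ratio was 0.972. Flt3, a receptor of early progenitors, had 57, 113 and 1 UMIs, and Kit had ratios of 1.43 (1.00 to 2.10) and 1.995 (1.42 to 2.90).

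Granule genes divided by class. Of 16 tested genes tied to primary granules, the 3 rule genes left out, 11 were higher in 1d and 5 in 7d, and the medians were 0.13 and −0.10. Ctsg was at 0.942 (0.910 to 0.9755) and 0.873 (0.844 to 0.903) times Ctrl, Ms4a3 at 1.09 (1.03 to 1.16) and 1.13 (1.06 to 1.19) (0.973 in 7d with median of ratios scaling), and Prss57 at 1.46 (1.29 to 1.67) and 1.44 (1.27 to 1.63). Srgn, the proteoglycan that packs granule proteins, and Lyz2, lysozyme, were lower, at 0.657 (0.641 to 0.673) and 0.634 (0.607 to 0.663) in 1d and 0.580 (0.566 to 0.594) and 0.326 (0.311 to 0.341) in 7d. In Ctrl, 1 member held 24.3% of the Lyz2 UMIs and 10.7% of those of Srgn, and at a limit of 2% rule UMIs Lyz2 was at 1.73 in 1d. As levels only, since the rule used them, Elane was at 9699.9, 8404 and 6895 CPM in 1d, 7d and Ctrl, Mpo at 6454, 7389.6 and 4375 and Prtn3 at 8142, 7018 and 6214.

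Of 18 secondary and tertiary granule genes, 13 were higher in 1d and 14 lower in 7d than in Ctrl, with medians of 0.29 and −0.73. Camp, the antimicrobial peptide precursor cathelicidin, was at 12491, 5636 and 10074 CPM in 1d, 7d and Ctrl, and Ngp, a neutrophil granule protein, at 5475, 1979 and 4115. Their ratios were 1.24 (1.22 to 1.26) and 1.33 (1.30 to 1.37) in 1d and 0.559 (0.550 to 0.569) and 0.481 (0.468 to 0.494) in 7d, while 1 member of Ctrl held 23.2% of its Camp and 24.1% of its Ngp UMIs. Lcn2, which withholds iron from bacteria, was at 0.761 (0.722 to 0.802) and 0.325 (0.307 to 0.343). At a limit of 2% rule UMIs, which leaves 15 members in Ctrl, the 7d ratios of Camp, Ngp and Lcn2 were 1.07, 1.10 and 1.09, and Lcn2 was at 2.03 in 1d. Among cycling members those 7d ratios were 1.70, 1.71 and 1.47. Among members under 0.5% secondary granule RNA, Camp was at 0.764 and the list median at −0.18 in 1d. Itgam, the integrin CD11b, was lower in both, at 0.436 (0.390 to 0.488) and 0.308 (0.275 to 0.344). Within late members the list median was 0.22 in 1d over Ctrl and −0.04 in 7d over Ctrl, beside 0.25 and 0.48 for all genes, and late members were 37.1%, 20.9% and 34.9% of members in 1d, 7d and Ctrl. Mmp9, the tertiary granule gelatinase, had 82, 51 and 0 UMIs in 1d, 7d and Ctrl. Against a floor of 3 UMIs per library, it was at least 5.25-fold higher in 1d and at least 2.23-fold higher in 7d (exact intervals, which allow more than 3 UMIs, began at 4.18 and 1.75), but 1 member held 34.1% of the UMIs of 1d and 1 member 23.5% of those of 7d.

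Stress and metal genes set 7d apart from 1d. Mt2, a metallothionein that binds zinc and copper (chr8:94172664-94173568), had 96 UMIs (11.5 CPM) in 1d, 2762 (226 CPM) in 7d and 77 (48.0 CPM) in Ctrl. Its lowest, median and highest levels per cell were 0, 0 and 372 CPM in 1d, 0, 74.7 and 1783 in 7d and 0, 0 and 224 in Ctrl, and 14.2%, 63.5% and 41.9% of members held a UMI. Mt2 was lower than Ctrl in 1d (0.240, 0.176 to 0.328) and higher in 7d (4.71, 3.75 to 5.99). Its neighbour Mt1 went the same ways, at 0.665 (0.629 to 0.703) and 1.68 (1.60 to 1.77). Of 22 NRF2 targets, the genes of the response to oxidants, 12 were higher in 1d and 15 in 7d, with medians of 0.04 and 0.32, beside 0.12 and 0.24 for all genes. Hmox1, haem oxygenase, was at 1.52 (1.24 to 1.88) and 4.30 (3.54 to 5.28), Osgin1 at 1.12 (0.653 to 2.03) and 3.95 (2.41 to 6.96), and Slc7a11, the cystine importer, at 0.589 (0.501 to 0.694) and 1.51 (1.31 to 1.75). Among cycling members Hmox1 was at 0.447 and Slc7a11 at 1.81 in 1d. Fth1, the ferritin heavy chain, was lower, at 0.540 (0.530 to 0.551) and 0.405 (0.398 to 0.413).

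Of 26 genes of the unfolded protein response and secretory pathway, 16 were higher in 1d and 23 in 7d, with medians of 0.08 and 0.37, beside 0.12 and 0.24 for all genes. Atf4, its translation-controlled factor, was at 1.40 (1.27 to 1.55) and 1.999 (1.81 to 2.21) (0.737 and 0.953 with members thinned), and Ddit3, which encodes CHOP, at 1.06 (0.781 to 1.48) and 2.39 (1.79 to 3.27). Of 22 genes that tissue dissociation is known to switch on, 15 were higher in 1d and 17 in 7d, with medians of 0.25 and 0.69, beside the same values for all genes. The heat shock genes led 1d: Hsph1 was at 3.03 (2.55 to 3.63) and Dnajb1 at 2.24 (1.99 to 2.52), while in 7d they were at 1.41 (1.18 to 1.69) and 0.862 (0.763 to 0.977). At a limit of 2% rule UMIs the 1d ratios were 1.53 and 1.03, and Hsph1 was at 0.533 in 7d. Hspa1a and Hspa1b, near-identical copies whose UMIs may be split unevenly, were at 4.16 (3.797 to 4.57) and 4.30 (3.94 to 4.70) in 1d, with 44.4% of the Hspa1a UMIs of Ctrl in 1 member. Egr1, an immediate early factor, was at 2.11 (1.42 to 3.26) and 3.35 (2.28 to 5.12), with 0.910 in 7d when members were thinned. Rhob, an early response gene, was at 2.63 (2.14 to 3.26) and 3.51 (2.87 to 4.34), and Atf3 at 1.02 (0.749 to 1.41) and 2.71 (2.04 to 3.69). The part of dissociation, freezing and thawing in these levels was not tested.

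Inflammatory genes were mostly lower. Of 25 NF-kB and inflammatory genes, 18 were lower in 1d and 16 in 7d, with medians of −0.28 and −0.56. Subtracting 5% free RNA gave 0.09 in 1d and 0.17 in 7d, and cycling members gave 0.45 and 0.68, so the sign of these medians turned in both. Bcl2a1b, a survival gene with near-identical copies, was at 0.295 (0.237 to 0.368) and 0.0628 (0.0462 to 0.0846), but 1 member held 45.7% of its UMIs in Ctrl. Ccl6, a chemokine, was at 0.239 (0.188 to 0.304) and 0.166 (0.131 to 0.211), with 1.79 and 1.26 at a limit of 2% rule UMIs. Il1rn, the interleukin-1 receptor antagonist, was at 0.448 (0.305 to 0.670) and 0.158 (0.101 to 0.248). Interferon response genes had medians of 0.10 and −0.14 over 23 and 24 genes, cytokine and homing receptors 0.00 and 0.14 over 18, apoptosis genes −0.13 and −0.01 over 20, and glycolysis and hypoxia genes −0.07 and 0.00 over 20. MHC class II genes had 0.38 over 8 and 0.46 over 9 genes (−0.94 and −0.13 at a limit of 2% rule UMIs), taurine metabolism and transport −0.35 over 5 and 0.37 over 6, and the 13 mitochondrially encoded genes −0.02 and 0.30. Slc6a6, the taurine transporter, was at 0.7002 (0.587 to 0.839) and 0.771 (0.652 to 0.918). When members were thinned Slc6a6 was at 3.35 and 4.05, but these thinned values rest on few Ctrl UMIs and have no interval. Csf3r, the receptor for the granulocyte growth factor, did not differ beyond counting error, at 1.05 (0.843 to 1.31) and 1.06 (0.861 to 1.32).

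Genes outside the lists were named by size of the nearer interval end. Lower in 1d and in 7d were Mgmt, which repairs alkylated guanine (0.167, 0.118 to 0.235, and 0.2004, 0.149 to 0.271), Cox6b2, a cytochrome c oxidase subunit (0.230, 0.196 to 0.270, and 0.214, 0.185 to 0.249), and Oosp1, an oocyte secreted protein gene (0.195, 0.135 to 0.283, and 0.207, 0.148 to 0.290). Cox6b2 was seen in 55.2%, 48.9% and 83.7% of members in 1d, 7d and Ctrl, without thinning and at depths that differ between libraries. Zfp467 was named in 1d (0.170, 0.0789 to 0.361), and Pilra, an inhibitory myeloid receptor, and Mapk13, a p38 kinase, in 7d (0.176, 0.141 to 0.219, and 0.2196, 0.172 to 0.281). Higher in 1d were the pseudokinase Trib3 (5.30, 2.22 to 16.6), Borcs5 (5.96, 1.98 to 29.4) and Samd1 (3.43, 1.97 to 6.54), and higher in 7d was Carm1, an arginine methyltransferase (6.20, 2.38 to 23.0). Krt81 and Krt83, hair keratin genes, had 104, 11 and 7 UMIs and 201, 91 and 43 UMIs in 1d, 7d and Ctrl, with ratios of 2.86 (1.34 to 7.28) and 0.898 (0.644 to 1.28) in 1d and 0.206 (0.0730 to 0.628) and 0.278 (0.191 to 0.409) in 7d. The 1d ratio of Krt81 was 0.685 at a limit of 0.25% rule UMIs. Zbtb39 had 41, 76 and 0 UMIs, at least 3.33-fold higher in 7d against the floor of 3 UMIs, where the exact interval began at 2.64. The histone genes Hist1h2ap, Hist1h2br and H4c8 were higher, at 3.69 (3.15 to 4.34), 9.32 (3.58 to 34.6) and 3.13 (1.97 to 5.26) in 1d, but histone genes have near-identical copies and these values are uncertain.

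Between 1d and 7d progenitors, 244 of 10997 genes (2.22%) were at least 2-fold higher in 1d and 442 (4.02%) at least 2-fold lower, 686 (6.24%) in all, with a median log2 of −0.12. With median of ratios scaling the counts were 344 and 348. Secondary granule genes stood apart: all 18 secondary and tertiary granule genes were higher in 1d, with a median of 0.88 and 7 past 2-fold, beside the larger share of late members in 1d. Saa3, an acute phase protein, was at 83.8, 12.3 and 152 CPM in 1d, 7d and Ctrl, a ratio of 6.83 (5.72 to 8.20) in 1d over 7d. Nrg1, a growth factor, was at 4.76 (3.50 to 6.57), Chit1, a chitinase, at 3.97 (2.60 to 6.20), Pik3r6 at 3.62 (2.66 to 4.99), the adhesion molecule Vcam1 at 2.81 (2.61 to 3.03), and Ldhb at 2.35 (2.01 to 2.74). Fas was at 5.18 (4.05 to 6.68). Lower in 1d than in 7d were Mt2 (0.0509, 0.0411 to 0.0624), Mt1 (0.397, 0.385 to 0.408), Pmaip1 (0.277, 0.235 to 0.327), Slc7a11 (0.390, 0.356 to 0.427), Dusp6, a brake on ERK signalling (0.399, 0.345 to 0.459), Slc22a4 (0.428, 0.355 to 0.512) and Cebpa (0.489, 0.438 to 0.545). The p53 list, so low against Ctrl in both, had a median of −0.13 between them, near the −0.12 of all genes, and Ccng1 (0.936, 0.771 to 1.13) and Bax (1.00, 0.919 to 1.10) had intervals that held 1. All 13 mitochondrially encoded genes were lower in 1d, with a median of −0.36.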

How the data were processed

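Single-cell RNA was measured in 3 10x Genomics 3' libraries of mouse jaw, 1 each for 1d, 7d and Ctrl, with 8 mice pooled in each. The deposited matrices hold raw UMI counts per gene and barcode, made with Cell Ranger 6.1.1 per the file headers; the submitters' processing notes also name CASAVA 1.8, Seurat and the build mm10. No source names a further filter by the authors on barcodes. Counts were summed over members and compared as CPM, with exact conditional binomial intervals for ratios, a pseudocount of 0.5 UMIs for list medians, exact Clopper-Pearson intervals for shares and 20 UMIs needed per gene over each pair of libraries. Doublets were scored with Scrublet (scanpy 1.11.5) and left in unless stated; the automatic threshold was used in Ctrl, and the highest scores at 0.8% per 1000 barcodes in 1d and 7d. The ratios weight large members more.

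Genes were named as up to 8 per side and comparison, ranked by the interval end nearer to 1, with detection in at least 10% of members of the higher library and no member with over 20% of the UMIs there, besides fixed genes and up to 3 per side from each of 20 lists; other genes given as list examples were chosen after their values were seen. A gene that this rule names is not reported here. Membership, the 20 lists and 17 marker lists were chosen with earlier results of these data known. Haemoglobin genes gave under 5 tested genes and no list value. Gene positions are those of GENCODE on GRCm38, the build mm10, matched by gene ID. The method was tested on simulated data. Python 3.11.15, numpy 2.4.6, scipy 1.17.1, pandas 2.3.3 and matplotlib 3.10.9 were used.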

Additional observations from a re-analysis of the deposited data

Results flagged for a closer look

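Mt2 was lower than Ctrl in 1d progenitors, at a ratio of 0.240, and higher in 7d progenitors, at 4.71. The ratios lie on opposite sides of 1, past 2-fold each, and with 1 library per group the difference between them was not tested.

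Barcodes outside the kept cells also held primary granule RNA. Among those that failed the limits on UMIs, genes or mitochondrial share, 12 of 916 in 1d and 6 of 1247 in 7d had at least 0.5% Elane, Mpo and Prtn3 UMIs, against 2 of 2435 in Ctrl. Counting all deposited barcodes gave 322, 527 and 45 such barcodes in 1d, 7d and Ctrl.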

How the results depend on the processing

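No paired analysis was possible because each group was 1 library and the labels give no replicate numbers. The share ratios to Ctrl kept their direction in every alternative run. They were 20.2 in 1d and 26.9 in 7d at a membership limit of 2%, and 2.27 and 6.66 with members plus secondary granule rich cells as the denominator. The p53 list median ranged from −1.26 to −0.80 in 1d over Ctrl and from −0.95 to −0.60 in 7d over Ctrl over 15 alternatives.

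Genes past 2-fold in 1d over Ctrl, 7d over Ctrl and 1d over 7d numbered 951, 1725 and 686. They were 473, 1143 and 447 with members thinned to 1000 UMIs, 1990, 2933 and 1639 with 5 UMIs needed per gene, and 254, 829 and 240 with 100 needed. Weighting members equally, chosen after seeing the data, gave 782 higher and 308 lower, 1425 and 446, and 295 and 469. With median of ratios scaling, 61.3%, 58.5% and 49.7% of the genes past 2-fold were higher, against 70.1%, 74.7% and 35.6%.

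Shares of members are given for 1d, 7d and Ctrl. At a limit of 1%, Kit or Cd34 was found in 2.83% in 1d and 0% in Ctrl, and monocyte genes in 4.67% in 7d. At 2%, secondary granule shares were 30.3%, 14.9% and 6.67%, Kit or Cd34 3.43%, 5.08% and 0%, and monocyte genes 1.14%, 1.02% and 0%. Unthinned shares were 85.5%, 85.8% and 90.7% for cycling, 51.0%, 65.8% and 46.5% for Kit or Cd34, and 31.6%, 33.4% and 30.2% for monocyte genes. At 2000 UMIs, cycling was 33.6%, 29.0% and 46.5%, and in 1d and 7d Kit or Cd34 was 12.4% and 14.5% and monocyte genes 14.3% and 16.8%. Cycling was 41.9%, 45.2% and 53.5% with 1 of 6 genes needed, and 2.92%, 2.69% and 2.33% with 3.

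Of 4249 gene ratios recomputed, 211 lay on the other side of 1, 18 of them where the reported ratio passed 2-fold. Of 838 list medians, 77 changed sign, 4 of them from beyond 0.5 on the log2 scale. The cause was not tested, and those from past these limits follow. At 0.25%, the 1d ratio was 0.685 for Krt81 and 0.475 for Gdf15, and the 7d ratio of Gdf15 was 0.984. At 1%, 1d had 0.842 for Krt81 and 0.972 for Gata2. At 2%, Ccl6 had 1.79 in 1d and 1.26 in 7d, and in 7d Ngp had 1.10 and Lcn2 1.09. Thinned members gave 0.730 for Cebpa and 0.910 for Egr1 in 7d, from few Ctrl UMIs. Subtracting 5% free RNA gave 0.17 for the NF-kB list in 7d. Among cycling members, 1d had 1.92 for Mapk13, 0.844 for Srm, 3.62 for Bcl2a1b and 0.965 for Dkc1. In 7d they had 1.71 for Ngp, 1.25 for Krt83 and 1.47 for Lcn2, and list medians of 0.41 (secondary and tertiary granule), 0.68 (NF-kB) and −0.10 (ribosome biogenesis and Myc targets).

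The chief limits are the single library per group and the 43 members of Ctrl. A further limit is that most p53 target genes were higher in that library, and the cause was not tested. Time after irradiation, capture and mouse pool cannot be told apart.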
